A study of Mus musculus with 3 samples.

Results

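The messages examined here encode the enzymes of glycolysis, the pentose phosphate pathway and glycogen metabolism, taken by name from a list of 34 genes. Of these, 33 stood under their own symbol among the 41743 symbols of the deposited tables. Aldoa stood there only under a symbol with a suffix and is described apart. RNA had been recovered by immunoprecipitation and sequenced (RIP-seq) from K7M2 cells, an established mouse osteosarcoma line of osteoblast type, grown without treatment. All 3 libraries share 1 genotype, Ezrin -/- with stably transfected Ezrin T567A, a derivative called COL3A, in which the only ezrin is a mutant that cannot be phosphorylated at the replaced threonine. The labels do not say how many clones went into it. There were 2 pull-downs with an antibody against ezrin, called replicates 1 and 2, and 1 with normal mouse IgG, which shows the background. The comparison addresses which RNAs closed ezrin binds. No library of total RNA was analysed here, so a difference between ezrin and IgG cannot be set against the level of a message in the cells.

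Glycolysis splits glucose into pyruvate, with yields of ATP and NADH, and lactate dehydrogenase turns pyruvate into lactate so that the NAD it needs is restored. The pentose phosphate pathway leaves glycolysis at glucose 6-phosphate: its oxidative arm makes NADPH, and its nonoxidative arm makes ribose phosphate and exchanges carbon with glycolysis. The same sugar phosphate is stored as glycogen by way of glucose 1-phosphate and UDP-glucose. Many tumours, osteosarcoma among them, run glycolysis fast and make lactate even where oxygen is present.

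The depth was 19676595 counts on genes in ezrin replicate 1, 16196329 in replicate 2 and 10124580 in IgG. Protein-coding genes held 97.5%, 98.1% and 74.7% of them in that order, so the IgG library had both fewer counts and a smaller part of them on messages. The part of this in the results was not tested; values with library sizes from protein-coding genes alone are given where they change a call or a direction. Of the 9 osteoblast lineage markers, Col1a2, Spp1 and Vim were at 75.4 CPM or more (CPM being counts scaled by library size and edgeR's TMM factor) in every library and called higher with ezrin by the edgeR test over all genes. Runx2 (37.6, 35.8 and 61.0 CPM) and Alpl (1.40, 1.01 and 3.45 CPM) were called lower, Col1a1 was not called, and Sp7, Ibsp and Bglap had at most 1 count. Epithelial, erythroid and skeletal muscle markers summed to under 1 CPM in every library. Among the macrophage markers Ptprc and Adgre1 were at 0 counts, while Csf1r lay between 870 and 1234 CPM.

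Most of these messages were more abundant in the ezrin libraries than in IgG. The enrichment ran through all 3 branches but was uneven: every tested enzyme of the glycogen branch and most of glycolysis rose, against 4 of 8 in the pentose phosphate pathway. The branches also differed in level, with which the share called higher rose over all genes, as described below. Of the 33 messages, 30 had enough counts to be tested with edgeR's quasi-likelihood test, in which p-values were adjusted by Benjamini-Hochberg over all 12478 genes tested and a gene is called at an adjusted p under 0.05. The test called 21 higher and 1 lower and left 8 uncalled, where 19.0% of all tested genes were called higher and 17.4% lower. The median log2 fold (ezrin over IgG) was 1.13 over these 30 messages and −0.02 over all tested genes. The untested messages, Aldoc, Ldhb and Pygl, had at most 7 counts in any library. The labels do not tie the pair of ezrin libraries to different cultures. The p-values therefore measure only the spread between these samples, which may be technical, and take the spread of IgG, with its 1 library, to be the same. That spread was pooled over genes, so p-values and SEs do not reflect how far the ezrin libraries differ on a given gene, such as Tkt or Eno1. All 3 libraries are bulk pull-downs from 1 line. A fold compares the RNA recovered with each antibody, and does not tell in how many cells a message was held.

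**Figure D1:**
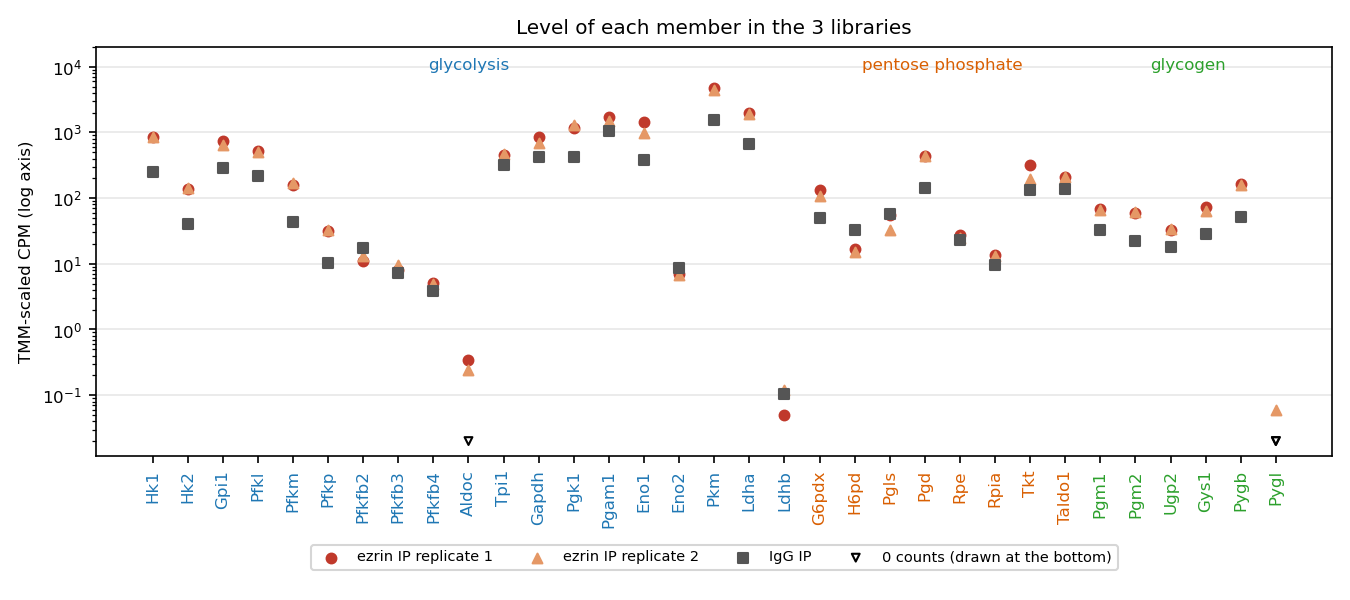
Level of each of the 33 messages in the 3 libraries, as CPM scaled by edgeR's TMM factors on a log axis, with circles and triangles for ezrin replicates 1 and 2, squares for IgG, and open triangles at the bottom for 0 counts. For Pkm the symbols lie at 4696, 4503 and 1537 CPM, and for H6pd and Pfkfb2 the IgG square lies above both ezrin symbols.

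Together the 33 messages took 1.68% of all counts in ezrin replicate 1 (exact Clopper-Pearson 95% interval 1.67 to 1.69) and 1.57% in replicate 2 (1.57 to 1.58). They took 0.608% in IgG (0.603 to 0.613). As a share of protein-coding counts the values were 1.72%, 1.60% and 0.814%, so the gap narrowed but kept its direction. Glycolysis supplied nearly all of this, with 298141, 231213 and 54515 counts, against 24496, 17183 and 5560 counts of the pentose phosphate branch and 7967, 6379 and 1461 counts of the glycogen branch. These intervals cover counting error only, since reads without molecular identifiers are not independent molecules.

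Enrichment in these libraries also rose with the counts of a message, and many of these enzymes have high counts. Of the tested members, 16 averaged at least 100 CPM, and 15 of them were called higher, where 38.5% of the 2257 genes at that level were. That average takes in 2 ezrin libraries and 1 IgG library, so being high with ezrin helps a gene, member or not, into this group. Hk2, Pfkm and Pygb entered it with IgG between 40.3 and 51.3 CPM. Of the 14 below 100 CPM, 6 were called higher, where 14.7% of the 10221 genes there were. The branches differed in level: 12 of 17 glycolysis, 3 of 8 pentose phosphate and 1 of 5 glycogen messages averaged at least 100 CPM. Of these, 11, 3 and 1 were higher in that order. Below 100 CPM, 1 of 5, 1 of 5 and 4 of 4 were. The median log2 fold of those 16 members was 1.56, against 0.30 for all genes at that level. Over all tested genes the median rose from −2.48 in the lowest unit of average log2 CPM (94 genes) to 0.64 between 9 and 10 (179 genes). A gene could pass the filter on 1 library alone, so genes with a low average may stand there because 1 library was high. The part of this in the low end was not tested. Between 3 and 4 the median was −0.06 (1418 genes). After cyclic loess normalization, which evens out such trends, 18 of the 30 members were higher and 1 lower. Of all 12478 tested genes, 2216 were higher and 2149 lower under that setting.

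**Figure D2:**
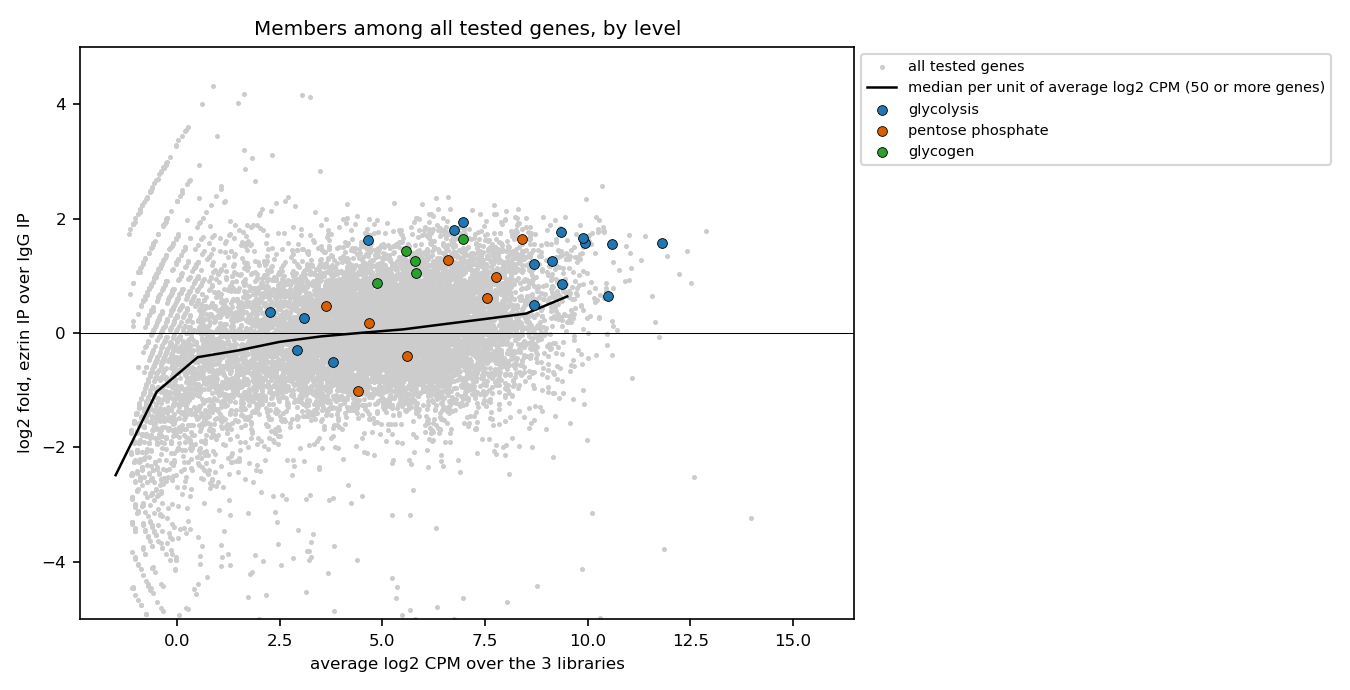
Log2 fold of ezrin IP over IgG IP against the average log2 CPM over the 3 libraries, with all 12478 tested genes in grey, the 30 tested members in the colour of their branch, and a black line for the median per unit of level. The line climbs from −2.48 at its left end to 0.64 at its right end, and most members lie above it. The 124 genes beyond the vertical axis limits are not drawn.

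Promoters are shown for 1 message of each branch, since every branch held several messages that were called higher: in each, the called message with the highest log2 fold among those with 1 listed start site. RIP-seq measures RNA that was recovered and says nothing of promoter activity. The 250 bases before the start site were taken from RefSeq's GRCm38.p6 annotation, which listed all 34 genes. Capitals mark ACGTG or its reverse complement CACGT, the core of the element bound by hypoxia-inducible factors, which are known to drive many glycolytic genes. These letters are also part of the CACGTG box of MYC.
Hk2, chr6:82774455-82774704 on the minus strand: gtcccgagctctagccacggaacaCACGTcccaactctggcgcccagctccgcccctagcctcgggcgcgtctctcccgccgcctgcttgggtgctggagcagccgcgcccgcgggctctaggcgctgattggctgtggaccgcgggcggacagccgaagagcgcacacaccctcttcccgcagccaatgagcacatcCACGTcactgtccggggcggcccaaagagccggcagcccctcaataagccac
Pygb, chr2:150786546-150786795 on the plus strand: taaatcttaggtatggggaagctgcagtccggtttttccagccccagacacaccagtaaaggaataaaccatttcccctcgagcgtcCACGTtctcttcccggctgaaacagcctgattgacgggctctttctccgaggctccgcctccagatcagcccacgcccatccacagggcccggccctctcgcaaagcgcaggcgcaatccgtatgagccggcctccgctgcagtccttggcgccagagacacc
G6pdx, chrX:74428881-74429130 on the minus strand: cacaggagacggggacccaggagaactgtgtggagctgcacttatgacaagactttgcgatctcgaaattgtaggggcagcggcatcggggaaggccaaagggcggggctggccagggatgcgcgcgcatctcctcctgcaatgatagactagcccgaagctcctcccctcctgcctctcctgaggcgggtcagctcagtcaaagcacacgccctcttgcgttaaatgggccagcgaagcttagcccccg
The core stood 2 times in the window of Hk2, 1 time in that of Pygb and 0 times in that of G6pdx. Counting all start sites, 14 of the 34 genes (41.2%) held it, against 18.5% of the 27025 genes in the promoter table. This is a description of letters, not of binding.

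The entry into glycolysis was among the most enriched parts of the pathway. Hexokinase phosphorylates glucose and so traps it in the cell. Hk1, the widely expressed form, stood at 848 and 853 CPM in the ezrin libraries and 251 CPM in IgG. Hk2, the form that many tumours induce, stood at 137 and 144 CPM against 40.3 CPM. The ezrin libraries lay close together and well above IgG for both. Their fold was nearly equal, 3.39 for Hk1 (log2 1.76, SE 0.23, edgeR adjusted p = 5.01e-12) and 3.48 for Hk2 (log2 1.80, SE 0.26, edgeR adjusted p = 5.36e-10). Hk2 accordingly made up similar parts of the hexokinase counts in all libraries, 13.9%, 14.5% and 13.8% (95% interval in IgG 12.6 to 15.2). Gpi1, which makes fructose 6-phosphate, was at 729.6 and 652 CPM against 289.7 CPM and rose 2.39-fold (edgeR adjusted p = 1.04e-06).

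Phosphofructokinase, the committed step, rose in all 3 of its isozymes, by different amounts. The muscle form Pfkm (chromosome 15, 98092589 to 98132447, GRCm38) was at 160 and 169 CPM against 42.9 CPM. Its 3.84-fold rise was the largest of any member tested (log2 1.94, SE 0.27, edgeR adjusted p = 1.96e-11). The platelet form Pfkp, at 31.0 and 32.8 CPM against 10.3 CPM, rose 3.09-fold (log2 1.63, edgeR adjusted p = 4.56e-07), with a log2 fold of 1.01 on RPKM plus 1. The liver form Pfkl, the highest of them per length in each library (65.6, 64.7 and 21.5 RPKM), was at 522 and 501 CPM against 221 CPM and rose 2.32-fold (edgeR adjusted p = 4.05e-06). Pfkm therefore took more of the phosphofructokinase counts in the ezrin libraries, 22.5% (95% interval 21.8 to 23.2) and 24.1% (23.3 to 24.9), than in IgG, 15.7% (14.3 to 17.1). Pfkl took 73.2% and 71.2% against 80.5%. Skeletal muscle markers were at 0 or 1 count in every library.

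The bifunctional enzymes that make and break down fructose 2,6-bisphosphate, the strongest activator of phosphofructokinase, were not called. Pfkfb2, the heart form, had 220, 224 and 166 counts, which is 11.0 and 13.4 CPM against 17.4 CPM (log2 fold −0.51, SE 0.28, edgeR adjusted p = 0.137). With library sizes from protein-coding genes it passed on the lower side (adjusted p = 0.0155). Pfkfb3, the inducible form that favours synthesis, was at 8.02 and 9.54 CPM against 7.32 CPM (log2 0.26, edgeR adjusted p = 0.575), and its direction turned with protein-coding library sizes (log2 −0.0071). Pfkfb4 was at 5.03 and 4.95 CPM against 3.87 CPM (log2 fold 0.37, edgeR adjusted p = 0.52). The combined level of the 3 messages was 24.02 and 27.8 CPM in the ezrin libraries and 28.5 CPM in IgG, while that of phosphofructokinase was 713, 703 and 274 CPM. Whether these messages differ from phosphofructokinase in their fold was not tested.

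**Figure D3:**
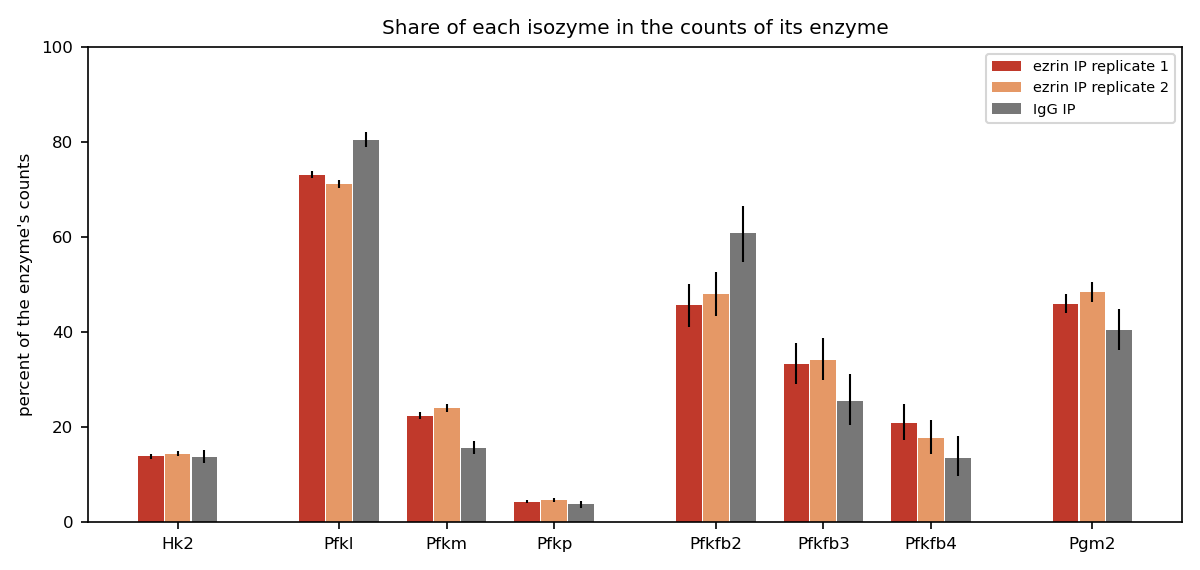
Share of each isozyme in the counts of its enzyme, as bars per library with exact 95% intervals that cover counting error only. The shares of Hk2 are alike in the 3 libraries, Pfkm is higher and Pfkl lower in both ezrin libraries than in IgG, and Pfkfb2 falls from 60.8% in IgG to 45.6% and 48.0% in the ezrin libraries.

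From aldolase to Gapdh the differences were smaller, at most 1.81-fold. Aldolase splits fructose 1,6-bisphosphate. The deposited row Aldoa_1, one of 2 rows that carry this symbol with a suffix and outside the list, was at 975 and 862 CPM against 609.9 CPM and rose 1.51-fold (edgeR adjusted p = 0.023). Aldoa_2 had at most 31 counts and was not called. Aldoc, the brain form, had 7, 4 and 0 counts. Tpi1, which interconverts the trioses, was at 449 and 464 CPM against 324 CPM. Its log2 fold of 0.49 (SE 0.23) missed the threshold (edgeR adjusted p = 0.0725). It passed as higher with library size as the only scaling (adjusted p = 0.0225), with no filter on low counts and with RPKM. Gapdh, which reduces NAD in the first oxidation step, was at 856 and 689 CPM against 426 CPM. It rose 1.81-fold (log2 0.86, SE 0.22, edgeR adjusted p = 7.60e-04), but not after cyclic loess (log2 fold 0.32, adjusted p = 0.255).

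From phosphoglycerate kinase onward the reported fold was near 3, except at the mutase. Cyclic loess lowered these values by over 1.5 times, to log2 folds of 0.97 for Pgk1, 1.04 for Eno1, 0.67 for Pkm and 0.84 for Ldha, all still called higher. Pgk1, which makes the first ATP of the payoff phase, was at 1187 and 1306 CPM against 419 CPM and rose 2.97-fold (log2 1.57, SE 0.23, edgeR adjusted p = 3.97e-10). Pgam1, the mutase, was second among the members per length in the ezrin libraries, after Pkm, and first in IgG. It stood at 1747 and 1517 CPM against 1039 CPM and rose 1.57-fold (log2 0.65, SE 0.22, edgeR adjusted p = 0.0097). This call is fragile. It did not pass among genes averaging 10 CPM or more (adjusted p = 0.0668) or with protein-coding library sizes (adjusted p = 0.138), and cyclic loess turned the log2 fold to −0.067 (adjusted p = 0.829).

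Among the tested glycolysis messages, the ezrin libraries differed most on Eno1. Eno1, the ubiquitous form, was at 1463 CPM in replicate 1, 978 CPM in replicate 2 and 385 CPM in IgG, so both ezrin libraries lay above IgG by 1.92 and 1.34 on the log2 scale. It rose 3.17-fold (log2 1.66, SE 0.23, edgeR adjusted p = 4.14e-11). A near-identical gene, Eno1b, held more counts than Eno1 itself, 39168, 32009 and 7840 against 29352, 16401 and 3688. Eno1b was at 1952 and 1908 CPM against 819 CPM, so its ezrin libraries lay close together. Eno1 took 42.8% of the counts of this pair in replicate 1, 33.9% in replicate 2 and 31.99% in IgG. No source used here states how reads that match both were counted, so the split between them is uncertain. The gap between replicates on Eno1 carries the same uncertainty. With both summed, a choice made after seeing the data, the log2 fold was 1.39 (SE 0.22, edgeR adjusted p = 5.36e-09). The neuronal form Eno2 was at 7.08 and 6.80 CPM against 8.57 CPM, with a log2 fold of −0.30 that did not pass (edgeR adjusted p = 0.509). Its direction turned with RPKM.

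The last steps rose about as much as Pgk1, and the ezrin libraries lay close together. Pkm, pyruvate kinase of muscle and tumours (chromosome 9, 59656576 to 59679372, GRCm38), was at 4696 and 4503 CPM against 1537 CPM, a 2.99-fold rise (log2 1.58, SE 0.21, edgeR adjusted p = 4.24e-12). The counts do not separate its M1 and M2 splice forms. Ldha, which reduces pyruvate to lactate, was at 1999.6 and 1940 CPM against 673 CPM and rose 2.93-fold (log2 1.55, SE 0.22, edgeR adjusted p = 2.84e-10). Ldhb, the heart form that favours the opposite reaction, had 1, 2 and 1 counts. Ldhb thus made up at most 0.0864% of the lactate dehydrogenase counts in IgG by the upper bound of the 95% interval, and at most 0.0222% in either ezrin library. Lactate dehydrogenase message in these libraries was almost wholly Ldha.

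**Figure D4:**
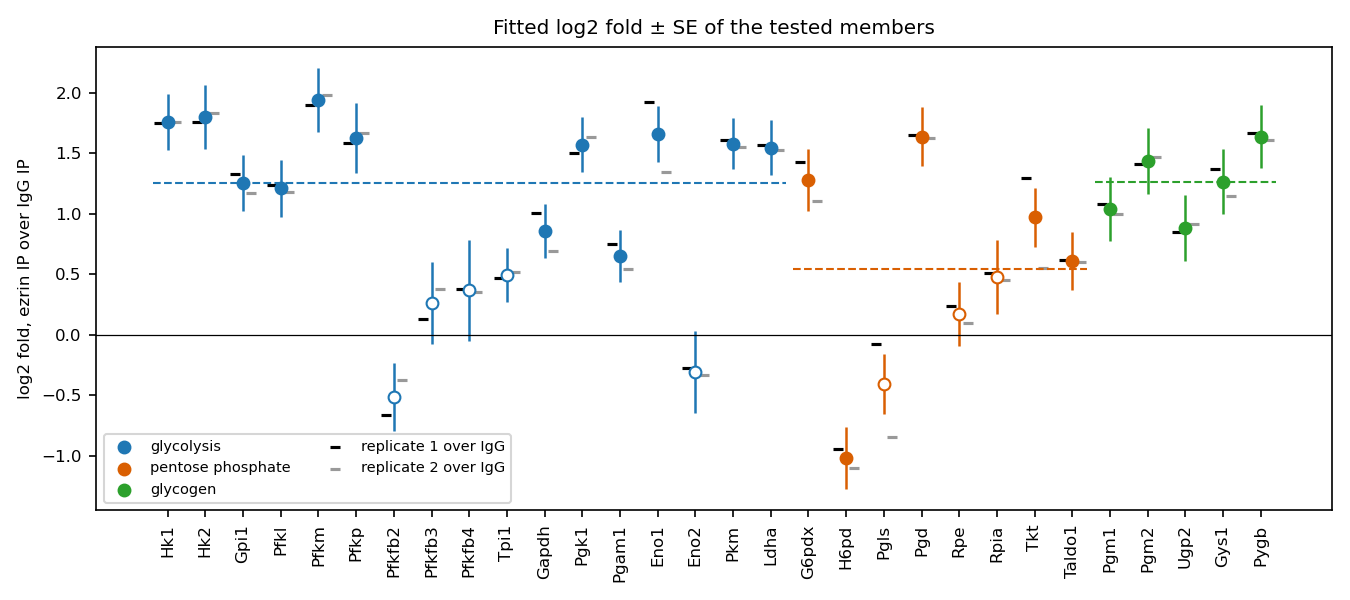
Fitted log2 fold ± SE of the 30 tested messages in pathway order, filled where called and open where not, with short black and grey bars for the ratio of ezrin replicates 1 and 2 to IgG and dashed lines for the branch medians of 1.25, 0.55 and 1.27. Pfkm is highest at 1.94, H6pd is the only filled point below 0 at −1.02, and the black and grey bars lie farthest apart for Pgls, Tkt and Eno1.

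Read as a whole, glycolysis had 12 of 17 tested messages higher and 0 lower, with 5 not called. Of all tested genes 19.0% were called higher and 17.4% lower, and of those averaging at least 100 CPM 38.5% were higher. At an unadjusted p under 0.05 edgeR gave 13 glycolysis messages higher and 0 lower, where it gave 2881 and 2750 of all 12478 genes. DESeq2 called 12 and 0 of the branch, and 1833 and 1019 of 12835 genes. With isozymes summed, the ratio of CPM to IgG in ezrin replicates 1 and 2 was 3.38 and 3.42 at hexokinase, 2.52 and 2.25 at the isomerase and 2.60 and 2.57 at phosphofructokinase. It was 1.60 and 1.41 at aldolase (with Aldoa_1), 1.39 and 1.43 at triose isomerase and 2.01 and 1.62 at Gapdh. It was 2.83 and 3.12 at phosphoglycerate kinase, 1.68 and 1.46 at the mutase and 3.73 and 2.50 at enolase (Eno1 and Eno2). The enolase values leave out Eno1b, which held more counts than Eno1 and rose 2.36-fold. The ratio was 3.05 and 2.93 at pyruvate kinase and 2.97 and 2.88 at lactate dehydrogenase. In both ezrin libraries the lowest 3 ratios among these enzymes belonged to aldolase, triose isomerase and the mutase. The order of levels per length was much the same in all libraries. In RPKM, which scales counts by gene length as well as depth, Pkm (782 ± 8.76 SD, n = 2, against 200 in IgG), Pgam1 (699 ± 57.0 against 340), Ldha (506 ± 1.501 against 132) and Pgk1 (473 ± 40.5 against 121) led among the members. Between neighbours in that order, Ldha and Pgk1 did not differ beyond their spread. Eno1b, outside the list, stood at 872 and 876 RPKM with ezrin, above Pkm, and at 283 in IgG. The place of enolase in this order thus depends on how reads shared by Eno1 and Eno1b were counted.

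The pentose phosphate pathway was split. In its oxidative arm the dehydrogenases of the cytosol rose, whereas the enzyme of the endoplasmic reticulum that catalyses the same first reactions was the only member called lower. G6pdx, glucose 6-phosphate dehydrogenase and the rate-setting source of NADPH, was at 132 and 106 CPM against 49.1 CPM and rose 2.43-fold (log2 1.28, SE 0.26, edgeR adjusted p = 9.28e-06). Pgd, the next dehydrogenase (chromosome 4, 149149991 to 149166705, GRCm38), was at 441 and 433 CPM against 140 CPM. Its 3.12-fold rise (log2 1.64, SE 0.24, edgeR adjusted p = 9.18e-10) was the largest of the branch and within 1 SE of those of Pkm and Ldha. H6pd (chromosome 4, 149979474 to 150009023), the hexose 6-phosphate dehydrogenase of the endoplasmic reticulum lumen, was at 16.7 and 15.0 CPM in the ezrin libraries and 32.2 CPM in IgG. It was 2.03-fold lower (log2 fold −1.02, SE 0.25, edgeR adjusted p = 4.20e-04). With RPKM, which moved the median gene up by 0.35 to 0.38, its log2 fold was −0.48 to −0.61 and not called (adjusted p = 0.1 and 0.0937).

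Pgls, the lactonase between the cytosolic dehydrogenases, was the member on which the ezrin libraries differed most. It was at 55.1 CPM in replicate 1, 32.4 CPM in replicate 2 and 58.1 CPM in IgG, so replicate 1 lay near IgG and replicate 2 well below it (log2 fold −0.41, SE 0.25, edgeR adjusted p = 0.188). It passed on the lower side with protein-coding library sizes (adjusted p = 0.0182). The enzymes on both sides of this step were thus called higher and the lactonase was not.

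The nonoxidative arm showed weaker differences. Transketolase, Tkt, moves carbon pairs between sugars and was at 323 CPM in replicate 1 and 193 CPM in replicate 2, both above the 132 CPM of IgG. It rose 1.96-fold (log2 0.97, SE 0.24, edgeR adjusted p = 4.40e-04), with a ratio of 1.30 in replicate 1 and 0.55 in replicate 2 on the log2 scale. Transaldolase, Taldo1, was at 211 and 207 CPM against 137 CPM and rose 1.53-fold (log2 0.61, SE 0.24, edgeR adjusted p = 0.0335). This call did not hold among genes averaging 10 CPM or more (adjusted p = 0.0664), after cyclic loess (adjusted p = 0.238) or with protein-coding library sizes (adjusted p = 0.252). Rpia, the ribose phosphate isomerase, was at 13.6 and 13.0 CPM against 9.51 CPM, and its log2 fold of 0.48 did not pass (edgeR adjusted p = 0.213), though it passed with RPKM (adjusted p = 0.0439 and 0.0479). Rpe, the epimerase, was at 27.7 and 25.1 CPM against 23.4 CPM, a log2 fold of 0.17 (edgeR adjusted p = 0.638) that turned to −0.097 with protein-coding library sizes. The branch median was 0.55, with 0.57 and 0.50 in replicates 1 and 2.

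All tested members of the glycogen branch rose. Pygb, the brain form of glycogen phosphorylase, which releases glucose 1-phosphate, was at 163 and 156 CPM against 51.3 CPM. Its 3.11-fold rise (log2 1.64, SE 0.26, edgeR adjusted p = 1.13e-08) was the largest of the branch. The liver form Pygl had 0, 1 and 0 counts. Gys1, the muscle-type glycogen synthase that runs the opposite reaction, was at 73.4 and 62.9 CPM against 28.3 CPM and rose 2.41-fold (log2 1.27, SE 0.27, edgeR adjusted p = 2.48e-05). The message of Gys1, for making glycogen, and that of Pygb, for breaking it down, were therefore both more abundant in the ezrin libraries. This does not extend to the pathway at large: of 17 other glycogen genes tested, 3 were higher and 1 lower, as given below.

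The phosphoglucomutases, which link glucose 6-phosphate to glucose 1-phosphate, rose too. The row Pgm1 was at 69.0 and 65.2 CPM against 32.6 CPM, a 2.06-fold rise (log2 1.04, SE 0.26, edgeR adjusted p = 5.20e-04). The row Pgm2 was at 58.9 and 61.3 CPM against 22.2 CPM, a 2.71-fold rise (log2 1.44, SE 0.27, edgeR adjusted p = 2.42e-06). RefSeq lists each of these symbols as an older name of the other, so which locus stands behind which row is uncertain. Ugp2, which makes UDP-glucose, was at 33.0 and 34.5 CPM against 18.3 CPM and rose 1.84-fold (log2 0.88, SE 0.27, edgeR adjusted p = 0.00504). It just missed the threshold with protein-coding library sizes (adjusted p = 0.0554). The branch had 5 of 5 tested messages higher, 5 also by DESeq2 and at an unadjusted p under 0.05, and 0 lower by each. Over all tested genes edgeR called 19.0% higher and 17.4% lower, with 2881 and 2750 of 12478 at an unadjusted p under 0.05. DESeq2 called 1833 and 1019 of 12835 genes.

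Set side by side, the medians of the fitted log2 folds were 1.25 for glycolysis, 0.55 for the pentose phosphate branch and 1.27 for the glycogen branch. They were 1.33, 0.57 and 1.37 as plain ratios in ezrin replicate 1 and 1.18, 0.50 and 1.15 in replicate 2. With protein-coding library sizes they were 0.985, 0.277 and 0.997, and after cyclic loess 0.761, 0.425 and 1.17. The difference between branches was not tested, since the genes of a branch are not replicates. The branches also differ in level, as given above. Both ezrin libraries lay on the same side of IgG for all 30 tested messages, above it for 26 and below it for 4, the latter being Pfkfb2, Eno2, H6pd and Pgls. Of all 12478 tested genes, 10847 had both on the same side, and 5315 had both above IgG. The ratios share the 1 IgG library, so they are not independent of each other. The size of the difference between the 2 ezrin libraries had a median of 0.08 on the log2 scale over these 30 messages and 0.23 over all tested genes. These medians are not matched for level: 16 of the 30 messages averaged at least 100 CPM, against 2257 of all 12478 tested genes. The difference exceeded 0.5 for 3 messages, Pgls, Tkt and Eno1, and was toward a lower value in replicate 2 for each.

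**Figure D5:**
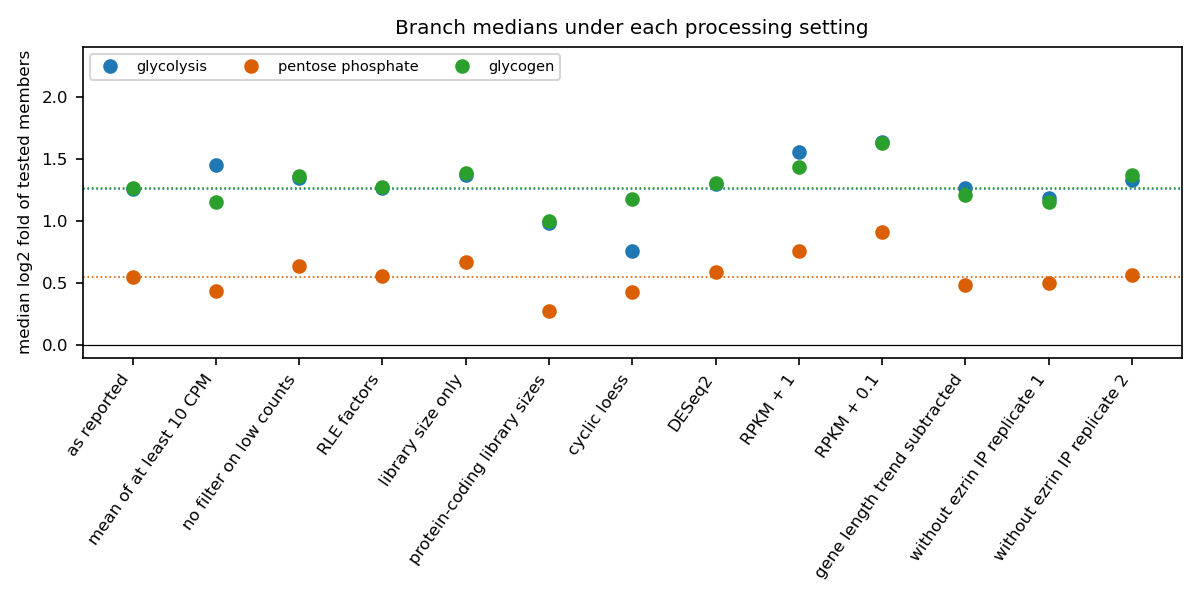
Median log2 fold of the tested members of each branch under every processing setting, with dotted lines at the reported values of 1.25, 0.55 and 1.27. The pentose phosphate median is the lowest of the 3 under each setting shown, and the medians of all branches stay above 0, down to 0.28.

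Calls over all genes depended on the scaling. EdgeR called 2377 higher and 2171 lower. With library size as the only scaling it called 2872 and 1761, and with protein-coding library sizes 1447 and 3515, a shift of the median gene by 0.12 and −0.27. Limma on log2 of RPKM plus 1 called 3734 and 964. The members' split was 22 higher and 1 lower, 18 and 3, and 23 and 0 under these settings in the same order.

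Further genes of the same pathways, isozymes of other tissues and less central enzymes, were taken from wider lists, and their calls were not tested against those of the members. Over all tested genes edgeR called 19.0% higher and 17.4% lower. Of 20 other glycolysis genes 9 were tested, and 3 (33.3%) were higher and 0 lower by edgeR. At an unadjusted p under 0.05 there were 4 and 0, and by DESeq2 2 and 0. Minpp1, a phosphatase of inositol and bisphosphoglycerate, was at 74.5 and 52.8 CPM against 77.2 CPM and was not called. Bpgm, which makes 2,3-bisphosphoglycerate, rose by 0.77 on the log2 scale (SE 0.26, edgeR adjusted p = 0.0135). Eno4, an enolase of sperm, had 53 and 35 counts against 0, at least 7.54-fold higher than the level of 3 counts in the IgG library. Of 10 other pentose phosphate genes 7 were tested, and edgeR called 0, with 1 higher at an unadjusted p under 0.05 and 0 by DESeq2. Prpsap1 and Prps2, of ribose phosphate activation, had log2 folds of 0.28 and −0.08.

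Of 22 other glycogen genes 17 were tested, with 3 (17.6%) higher and 1 lower. Neither stands above the 19.0% higher and 17.4% lower of all tested genes. Phkb, a subunit of phosphorylase kinase, was not called (log2 fold 0.35). Ppp1r3e, which targets a phosphatase to glycogen, was lower on 17, 14 and 34 counts (log2 fold −2.07, edgeR adjusted p = 0.0029), which DESeq2 did not call. The median log2 folds of these lists were 0.36, 0.28 and 0.35, in the order glycolysis, pentose phosphate and glycogen.

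Subunits of the pyruvate dehydrogenase complex rose, whereas the main glucose transporter and the chaperone of the lactate carriers were not called. Of 18 genes of glucose and lactate transport and pyruvate entry 15 were tested, and 4 (26.7%) were higher and 1 lower. Of all tested genes, 19.0% were higher and 17.4% lower. Pdha1, Pdhb and Dlat, subunits of the complex that turns pyruvate into acetyl-CoA, rose with log2 folds of 1.26, 1.31 and 1.28 (SE 0.25 each), and Pdhb was at 210 and 253 CPM against 93.3 CPM. Mpc1, a subunit of the carrier that brings pyruvate into mitochondria, was lower at 11.7 and 6.92 CPM against 21.7 CPM (log2 fold −1.22, SE 0.28, edgeR adjusted p = 9.82e-05), which DESeq2 did not call. Bsg, the chaperone of the lactate carriers, was not called (log2 fold 0.21). Slc2a1, the main glucose transporter, named after its values were seen, was at 98.3 and 92.0 CPM against 75.5 CPM, a log2 fold of 0.33 that did not pass (edgeR adjusted p = 0.288).

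Of 13 regulators 12 were tested, with 1 (8.33%) higher and 2 lower. Neither stands above the 19.0% higher and 17.4% lower of all tested genes. Stk11 and Myc, the most abundant, had log2 folds of −0.18 and 0.16 and were not called. Vhl, which marks hypoxia-inducible factors for destruction, was lower at 9.02 and 11.0 CPM against 20.3 CPM (log2 fold −1.02, SE 0.28, edgeR adjusted p = 0.00143). Egln3, an oxygen-sensing hydroxylase, was lower on 79, 68 and 84 counts (log2 fold −1.13, SE 0.37, edgeR adjusted p = 0.00823). DESeq2 called neither.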

How the data were processed

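RIP-seq counts of 2 ezrin libraries and 1 IgG library were used. Per the file headers and values, the authors deposited, for each library, raw counts per gene symbol and a table of RPKM. The build was GRCm38 per the submitters' processing notes; no source used here names the aligner, counter, annotation or use of strand. The labels name both ribosomal RNA depletion and polyA RNA. Groups came from the sample titles.

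The deposited counts were tested with edgeR 4.0.16 (R 4.3.3): TMM factors of 1.02, 1.04 and 0.946, default filterByExpr by group, quasi-likelihood test, Benjamini-Hochberg adjustment over 12478 genes, threshold 0.05. The fit has 1 residual degree of freedom; its prior degrees of freedom were infinite, so a spread pooled over genes was used for each. SE is the log2 fold over the square root of F and is approximate. CPM are TMM-scaled; ratios of single libraries used a prior count of 0.125. The edgeR and limma steps were tested on simulated data.

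Alternatives used other filters and factors, DESeq2 1.42.0, and limma 3.58.1 on cyclic loess values and on log2 of RPKM plus 1 or 0.1. The members, lists and alternatives were chosen with earlier results of these data known. All members are named; from the wider lists, the 2 genes highest in CPM and called genes with a log2 fold of at least 1 in size may be named. Gene positions and biotypes came from RefSeq GRCm38.p6, which matched 30407 symbols and all 33 members. Of all symbols, 173 carry a numeric suffix. The values of 1 gene of the wider lists are not reported here.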

Additional observations from a re-analysis of the deposited data

How the results depend on the processing

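Calls on some members depended on the filter and scaling. Pfkfb2, Tpi1, Gapdh, Pgam1, H6pd, Pgls, Rpia, Taldo1 and Ugp2 crossed the threshold under at least 1 setting. With protein-coding library sizes 23 of the 30 members kept both their direction and their side of the threshold. With RLE factors and with DESeq2 all 30 members kept their direction and their side of the threshold, and 21 were higher and 1 lower with each. Over all genes RLE factors gave 2396 higher and 2106 lower of 12478, and DESeq2 1833 and 1019 of 12835. The shift of the median gene against the reported values was −0.11 at a mean of at least 10 CPM, 0.12 with library size only, −0.27 with protein-coding library sizes and 0.35 and 0.38 with RPKM plus 1 and plus 0.1. Under these settings in the same order the glycolysis median became 1.45, 1.37, 0.985, 1.56 and 1.64, and the pentose phosphate median 0.435, 0.666, 0.277, 0.756 and 0.908. At 10 CPM only 27 members were left, which changes the medians by itself. The glycogen median became 0.997 with protein-coding library sizes and 1.43 and 1.63 with RPKM. Cyclic loess gave 0.761 for glycolysis and 0.425 for the pentose phosphate branch, no filter gave 0.64 for the latter, and a subtracted trend on gene length 0.482. Protein-coding library sizes left 1 glycolysis and 2 pentose phosphate messages lower, and RPKM 0 of the latter with either pseudocount. The log2 fold turned for Pgam1 after cyclic loess (−0.067), for Pfkfb3 (−0.0071) and Rpe (−0.097) with protein-coding library sizes and for Eno2 with RPKM (0.046 and 0.077). For these changes the cause was not tested.

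No paired analysis was possible because the groups share only replicate number 1. Leaving out an ezrin library leaves no residual degrees of freedom, so it gives values with no test: no member changed sign. Depth limits Aldoc, Ldhb and Pygl, which could not be tested, and the 1 IgG library limits every value.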
